A study of Homo sapiens with 12 samples.

Results

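CNN1, CNN2, CNN3, TAGLN, TAGLN2, TPM1, TPM2, ACTA2, CORO1A and RAC2 encode proteins that bind or remodel actin filaments, and their levels were followed in MiaPaca2 cells that had or had not been epigenetically primed. These 10 genes are 10 of the 63677 identifiers counted, and 9 of them were among the 17123 that had enough counts to be tested. They were chosen by name with the response to priming already known: CNN3, CORO1A and RAC2 were picked because their measured levels were higher in primed cells. Their values under priming are therefore given as a description, without a test, and only the calcipotriol comparisons and genes outside the 10 are tested.

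MiaPaca2 is an established human pancreatic ductal adenocarcinoma (PDAC) line labelled as wild type, and total RNA was sequenced after 24 h of treatment in 4 groups of 3 libraries. Con cells received DMSO, CPT cells received 1 µM calcipotriol (a vitamin D analogue), GTA+5-Aza cells received 2 mM glyceryl triacetate with 1 µM 5-Aza-2′-deoxycytidine, and CPT+GTA+5-Aza cells received all 3 agents. GTA is a source of acetate for acetylating histones, 5-Aza blocks the DNA methyltransferases, and the pair is called priming here. The design addressed how priming changes the transcriptome and its response to vitamin D. All 4 groups are 1 line grown in culture, and each group with GTA also had 5-Aza, so the effects of the 2 agents cannot be told apart.

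Calponins and transgelins are small proteins with a calponin homology fold that lie along actin filaments, where calponin restrains the myosin motor. Tropomyosins coil end to end along the filament and set which other proteins may bind it. Coronin 1A links filaments to the Arp2/3 branching complex, RAC2 is a small GTPase that triggers filament branching and activates the NADPH oxidase, and both are best known from blood cells. CNN1, TAGLN, ACTA2, TPM1 and TPM2 are familiar as smooth muscle genes controlled by serum response factor (SRF), while CNN2, CNN3 and TAGLN2 are the forms of nonmuscle cells.

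Total counts per library ran from 16162490 to 21224665. Libraries of the same group differed from each other by 3.88 to 16.6 times what counting error gives, the most for CPT replicates 2 and 3, so none was a repeat of another. The labels number the libraries of a group but do not say that they came from separate cultures. The paper calls the 3 samples of each experiment independent, without saying how they were separated. The p-values measure the spread between these libraries, which may be technical. Keratins 8 and 18 and the ductal factor SOX9 were abundant, at 25823 to 34350, 11793 to 16549 and 2737 to 4263 counts per library, while the epithelial adhesion genes EPCAM and CDH1 reached at most 1 and 4 counts. Of 10 leukocyte markers, CD2, CD3E and LCP2 were at 0 in all 12 libraries and PTPRC (CD45) reached at most 4 counts, and the summed leukocyte markers ran from 0.715 to 2.43 CPM (counts normalised to the TMM-scaled library size) in unprimed and from 1.5 to 4.81 CPM in primed libraries. Of 9 fibroblast markers LUM and FAP were at 0 everywhere, whereas the summed list, mostly the collagen chain COL1A2, was at 780 to 932 CPM in unprimed and 917 to 1070 CPM in primed libraries. The 3 fibroblast markers with enough counts, all collagen chains, rose with priming without CPT by edgeR's quasi-likelihood test: COL1A1 by 3.62 ± 0.68 on the log2 scale (adjusted p = 0.000425, on 1 to 44 counts per library), COL3A1 by 0.34 ± 0.07 (adjusted p = 0.00133) and COL1A2 by 0.15 ± 0.05 (adjusted p = 0.0410). With CPT, COL1A1 rose by 3.46 ± 0.70 (adjusted p = 0.000934 by edgeR) and COL1A2 by 0.19 ± 0.05 (adjusted p = 0.0102), and COL3A1 was at 0.20 ± 0.07 (adjusted p = 0.0602). Of 8 ductal epithelial markers 6 were tested, and 3 rose and 0 fell in each comparison at an adjusted p under 0.05. Without CPT these were KRT7 (log2 2.34 ± 0.58, on 4 to 49 counts per library), KRT19 (0.27 ± 0.09) and SOX9 (0.38 ± 0.06). With CPT they were KRT18 (0.18 ± 0.06), KRT19 (0.28 ± 0.10) and SOX9 (0.54 ± 0.06). MUC1 had 27 to 64 counts per library and passed in neither. Beside these fibroblast and ductal markers, 9.95% of all tested genes rose and 7.53% fell without CPT, and 9.57% and 7.39% with CPT. The smooth muscle markers MYH11 and DES summed to 7.53 to 11.9 CPM in unprimed and 7.48 to 12.4 CPM in primed libraries, almost all of it MYH11. The part of these marker levels in the results was not tested.

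The calponin genes held very different shares of the family. Their promoter windows are shown because CNN2 and CNN3 have near-equal numbers of CpG dinucleotides, the pairs of bases that DNA methyltransferases modify, and differed in their level and in their change with priming. Each line is a RefSeq window on GRCh38.p14 from 250 bases before to 50 bases after an annotated start, with CG in capitals. The CNN1 window is chr19:11538601-11538900 on the plus strand, the CNN2 window chr19:1026358-1026657 on the plus strand, and the CNN3 window at the outermost start chr1:94927061-94927360 on the minus strand.
CNN1: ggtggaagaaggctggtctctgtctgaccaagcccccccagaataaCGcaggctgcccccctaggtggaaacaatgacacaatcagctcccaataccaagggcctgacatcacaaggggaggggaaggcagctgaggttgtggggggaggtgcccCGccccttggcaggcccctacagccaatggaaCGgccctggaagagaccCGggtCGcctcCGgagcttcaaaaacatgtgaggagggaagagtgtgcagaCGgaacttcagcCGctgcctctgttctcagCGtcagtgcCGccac
CNN2: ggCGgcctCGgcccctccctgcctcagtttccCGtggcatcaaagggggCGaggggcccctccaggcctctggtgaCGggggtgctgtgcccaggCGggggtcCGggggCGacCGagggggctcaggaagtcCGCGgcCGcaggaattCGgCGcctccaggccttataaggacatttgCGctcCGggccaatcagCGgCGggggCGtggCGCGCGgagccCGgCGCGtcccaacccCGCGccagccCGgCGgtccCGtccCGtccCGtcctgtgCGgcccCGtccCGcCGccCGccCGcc
CNN3: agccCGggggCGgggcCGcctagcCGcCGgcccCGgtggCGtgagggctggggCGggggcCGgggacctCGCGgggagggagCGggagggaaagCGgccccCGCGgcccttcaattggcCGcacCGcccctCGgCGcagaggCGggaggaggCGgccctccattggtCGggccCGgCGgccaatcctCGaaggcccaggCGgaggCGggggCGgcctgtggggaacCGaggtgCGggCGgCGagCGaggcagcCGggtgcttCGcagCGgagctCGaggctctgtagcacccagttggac
The CNN1 window held 10 CpG, the CNN2 window 38 and the CNN3 window 37, beside a median of 14 over all 35116 windows. As many CpG as in the CNN2 window occurred in 9.91% of all windows, and as many as in the CNN3 window in 11.3%. A second, inner CNN3 start had 11 CpG.

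CNN1 (ENSG00000130176, chromosome 19, 11538767 to 11550323), the calponin of smooth muscle, was practically silent. It had 0 counts in all 6 unprimed libraries, 0, 1 and 0 counts in the 3 GTA+5-Aza libraries and 0, 1 and 4 counts in the 3 CPT+GTA+5-Aza libraries. A count of 0 allows up to 3 counts in that library, for counting error only, so no fold was computed and CNN1 was not tested.

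CNN2 (ENSG00000064666, chromosome 19, 1026586 to 1039068) supplied nearly all calponin RNA. Its level was 175, 192 and 189 CPM in the Con libraries, 179, 196 and 182 in CPT, 207, 178 and 210 in GTA+5-Aza, and 189, 191 and 194 in CPT+GTA+5-Aza. The 4 groups overlapped. Under priming the fitted log2 fold change was 0.10 ± 0.07 (SE) without CPT and 0.04 ± 0.07 with CPT.

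CNN3 (ENSG00000117519, chromosome 1, 94896949 to 94927223, minus strand), an acidic calponin of nonmuscle cells, had the largest fold with priming among the 9 genes fitted. Its level was 0.894, 1.00 and 0.875 CPM in Con, and 0.605, 0.197 and 1.26 CPM in CPT. With priming it was 9.56, 9.42 and 9.03 CPM in GTA+5-Aza and 7.24, 8.80 and 9.37 CPM in CPT+GTA+5-Aza. The lowest primed library lay above the highest unprimed library by several times, and the counts behind these levels ran from 4 to 23 unprimed and from 137 to 188 primed. The fitted change was 10.0-fold without CPT (log2 3.33 ± 0.30) and 12.4-fold with CPT (log2 3.64 ± 0.32). Leaving out CPT replicate 3, the CPT library with the most CNN3 counts, moved the latter to 4.41 on the log2 scale. Even so CNN3 remained a minor calponin: it was 0.1% to 0.684% of all calponin counts in the unprimed libraries and 3.69% to 5.02% in the primed ones. Per kilobase of exon, CNN3 had a mean of 0.332 CPM in Con and 3.36 CPM in GTA+5-Aza, against 50.9 and 54.4 CPM for CNN2. In bulk RNA, more cells with CNN3 RNA and more CNN3 RNA per cell cannot be told apart, here or for the other genes.

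**Figure D1:**
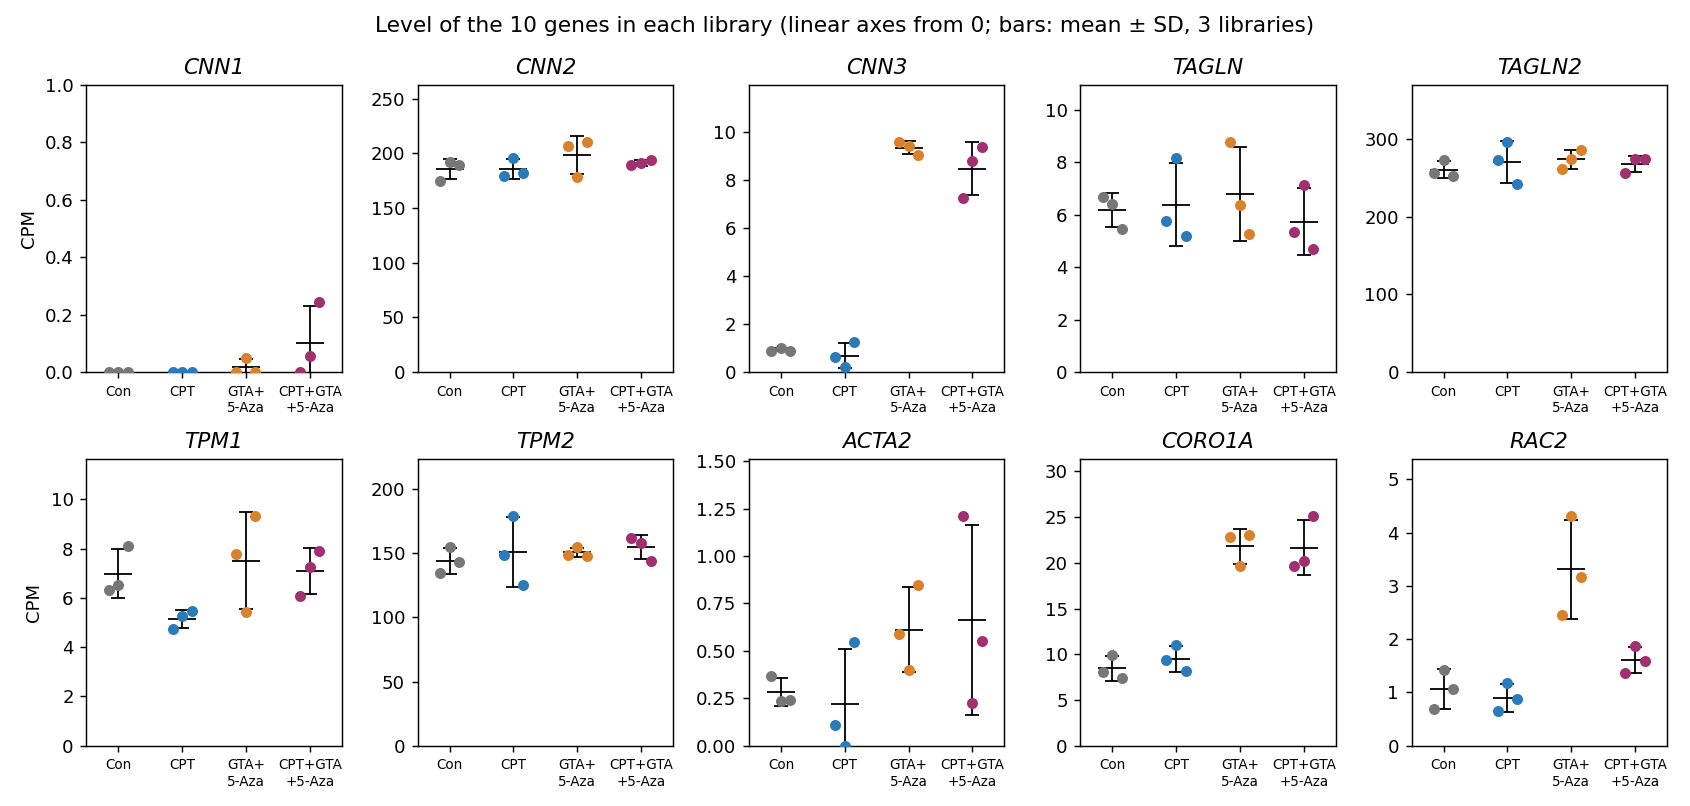
Level of the 10 genes in CPM (linear axes from 0) in each of the 12 libraries, with points for libraries and bars for the mean ± SD of 3, not drawn below 0. CNN3 and CORO1A libraries with priming all lie above those without, at 7.24 CPM or more against 1.26 or less for CNN3, while CNN2, TAGLN2 and TPM2 stay level.

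The transgelins, shorter relatives of the calponins, showed no such separation. TAGLN (ENSG00000149591, chromosome 11, 117199370 to 117207464), also called SM22 alpha, was at 6.68, 6.39 and 5.45 CPM in Con and 5.77, 8.17 and 5.19 CPM in CPT. In the primed groups it was 8.76, 6.36 and 5.25 CPM in GTA+5-Aza and 5.34, 7.15 and 4.71 CPM in CPT+GTA+5-Aza. Its log2 change with priming was 0.14 ± 0.22 without CPT and -0.15 ± 0.22 with CPT, so the sign differed between the 2 settings and both values were within 1 SE of 0. The TAGLN gene shares up to 2020 bases of exon with PCSK7 on the opposite strand, which had 904 to 1495 counts per library, and the strand setting of the counting is not given in the sources used here, so some reads of the pair cannot be told apart.

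TAGLN2 (ENSG00000158710, chromosome 1, 159918107 to 159925507, minus strand), the nonmuscle transgelin, had the highest level of the 10 genes. It lay between 242 and 296 CPM in every library, with group means of 261 in Con, 270 in CPT, 274 in GTA+5-Aza and 268 in CPT+GTA+5-Aza and SDs (n = 3) of 10.2 to 26.7. The fitted log2 change with priming was 0.07 ± 0.06 without CPT and -0.01 ± 0.06 with CPT. Per kilobase of exon its mean over the 12 libraries was 119 CPM, against 0.957 CPM for TAGLN.

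Tropomyosins split in the same way into an abundant and a scarce form. TPM2 (ENSG00000198467, chromosome 9, 35681992 to 35690056, minus strand) lay between 125 and 179 CPM, and both of these extremes were CPT libraries. Its log2 change with priming was 0.06 ± 0.09 without CPT and 0.04 ± 0.09 with CPT.

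TPM1 (ENSG00000140416, chromosome 15, 63042620 to 63071915) was at 6.31, 6.53 and 8.12 CPM in Con and 4.73, 5.26 and 5.46 CPM in CPT. With priming it was 7.80, 5.41 and 9.32 CPM in GTA+5-Aza and 6.07, 7.27 and 7.90 CPM in CPT+GTA+5-Aza. All CPT libraries lay below all Con libraries and below all CPT+GTA+5-Aza libraries, while Con, GTA+5-Aza and CPT+GTA+5-Aza overlapped. The log2 change with priming was 0.10 ± 0.20 without CPT and 0.46 ± 0.20 with CPT. Opposite-strand transcripts overlap TPM1 exons, among them TPM1-AS with 11 to 35 counts per library, beside 86 to 167 counts for TPM1. Another, ENSG00000259627, shares up to 437 exon bases and had 6 to 23 counts in unprimed and 22 to 44 in primed libraries. Its log2 change with priming was 1.22 ± 0.49 without CPT and 1.35 ± 0.48 with CPT (adjusted p = 0.0850 and 0.0532 by edgeR). Without the strand setting, reads shared with TPM1 cannot be told apart.

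ACTA2 (ENSG00000107796, chromosome 10, 88935074 to 88991339, minus strand), the actin of smooth muscle and of activated fibroblasts, was near the limit of detection. Its counts were 7, 5 and 5 in Con, 2, 0 and 10 in CPT, 11, 8 and 15 in GTA+5-Aza, and 23, 4 and 9 in CPT+GTA+5-Aza. The GTA+5-Aza libraries all lay above the Con libraries, at 0.401 to 0.847 against 0.238 to 0.368 CPM, but the CPT+GTA+5-Aza libraries overlapped with both. The fitted log2 change of 1.09 ± 0.82 without CPT and 1.61 ± 0.85 with CPT carried an error of that same order, and leaving out CPT replicate 3 moved the latter to 3.51. ACTA2 also overlaps exons of FAS and ACTA2-AS1 on the opposite strand, with 5 to 42 and 0 to 10 counts per library, which makes its few counts less certain still.

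CORO1A (ENSG00000102879, chromosome 16, 30182827 to 30189076) was the other gene with complete separation. Its RefSeq window, chr16:30183352-30183651 on the plus strand of GRCh38.p14, is shown for comparison with that of CNN3, the other gene whose groups separated, again with CG in capitals.
CORO1A: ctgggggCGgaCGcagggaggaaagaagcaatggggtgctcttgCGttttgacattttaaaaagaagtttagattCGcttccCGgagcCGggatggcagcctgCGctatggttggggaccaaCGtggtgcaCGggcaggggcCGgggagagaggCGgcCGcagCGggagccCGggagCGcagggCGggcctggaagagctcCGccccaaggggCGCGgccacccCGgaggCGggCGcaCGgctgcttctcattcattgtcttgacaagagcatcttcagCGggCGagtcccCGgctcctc
The window held 26 CpG, and 30.1% of all windows held as many. CORO1A was at 8.05, 9.96 and 7.39 CPM in Con and 9.35, 11.0 and 8.19 CPM in CPT. With priming it was 22.8, 19.6 and 23.0 CPM in GTA+5-Aza and 19.7, 20.2 and 25.1 CPM in CPT+GTA+5-Aza. The 2 unprimed groups overlapped each other, as did the 2 primed groups, and no primed library reached down to an unprimed one. The fitted change was 2.57-fold without CPT (log2 1.36 ± 0.15) and 2.27-fold with CPT (log2 1.19 ± 0.15). Beside this, the leukocyte marker PTPRC stayed at 4 counts or fewer in every library and 3 of the 10 leukocyte markers were at 0, while the range of their summed CPM lay higher in primed libraries, as given above. The 2 leukocyte markers with enough counts to be tested were ITGB2, at 7 to 52 counts per library (log2 0.55 ± 0.53 without CPT and 1.24 ± 0.54 with CPT, adjusted p = 0.543 and 0.116 by edgeR), and CD14, at 1 to 30 counts (0.41 ± 0.69 and 0.49 ± 0.70).

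A noncoding gene on the opposite strand, CORO1A-AS1, overlaps CORO1A by 126 exon bases. Its counts were 8 to 25 in unprimed and 26 to 57 in primed libraries, beside 150 to 427 for CORO1A. In edgeR's quasi-likelihood fit, with p adjusted by Benjamini-Hochberg, its log2 change with priming was 1.34 ± 0.45 without CPT (adjusted p = 0.0398) and 1.00 ± 0.45 with CPT (adjusted p = 0.137). Without the strand setting, how far the 2 genes share reads cannot be told apart.

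RAC2 (ENSG00000128340, chromosome 22, 37225270 to 37259594, minus strand) was scarce, with 12 to 86 counts per library. It was at 0.684, 1.43 and 1.07 CPM in Con and 0.660, 1.18 and 0.873 CPM in CPT. With priming it was 2.46, 4.31 and 3.16 CPM in GTA+5-Aza and 1.37, 1.87 and 1.59 CPM in CPT+GTA+5-Aza. In order of their means the groups were GTA+5-Aza (3.31 ± 0.934 CPM, SD, n = 3), CPT+GTA+5-Aza (1.61 ± 0.251), Con (1.06 ± 0.373) and CPT (0.905 ± 0.262). The first group lay above all others, the ranges of CPT+GTA+5-Aza and Con overlapped slightly (1.37 against 1.43 CPM), and those of Con and CPT overlapped. The fitted change with priming was 3.10-fold without CPT (log2 1.63 ± 0.38) and 1.77-fold with CPT (log2 0.82 ± 0.41). RAC1, the widely expressed member of the family, remained far above it per kilobase of exon, and RAC2 made up 0.322% to 0.709% of the summed RAC1, RAC2 and RAC3 level per exon length in unprimed libraries, 1.24% to 2.17% in GTA+5-Aza and 0.720% to 0.939% in CPT+GTA+5-Aza.

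Over the 10 genes, every primed library lay above every unprimed library for 2, CNN3 and CORO1A, and below for 0. Among all 17123 tested genes these shares were 8.04% and 6.81%, and nothing is read from the comparison because priming chose the members. The 3 genes picked for their response start from a low level, at a mean of 0.804 CPM for CNN3, 8.98 CPM for CORO1A and 0.983 CPM for RAC2 in the 6 unprimed libraries. Among the other 7 genes, CNN2, TAGLN2 and TPM2 had means of 148 CPM or more over the 6 unprimed libraries and log2 changes between -0.01 and 0.10. TAGLN and TPM1 had log2 changes between -0.15 and 0.46, and ACTA2 and CNN1 had too few counts for a narrow estimate. Familiar smooth muscle genes did not move as 1 block with CNN3, since TAGLN, TPM1 and TPM2 overlapped between primed and unprimed libraries.

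**Figure D2:**
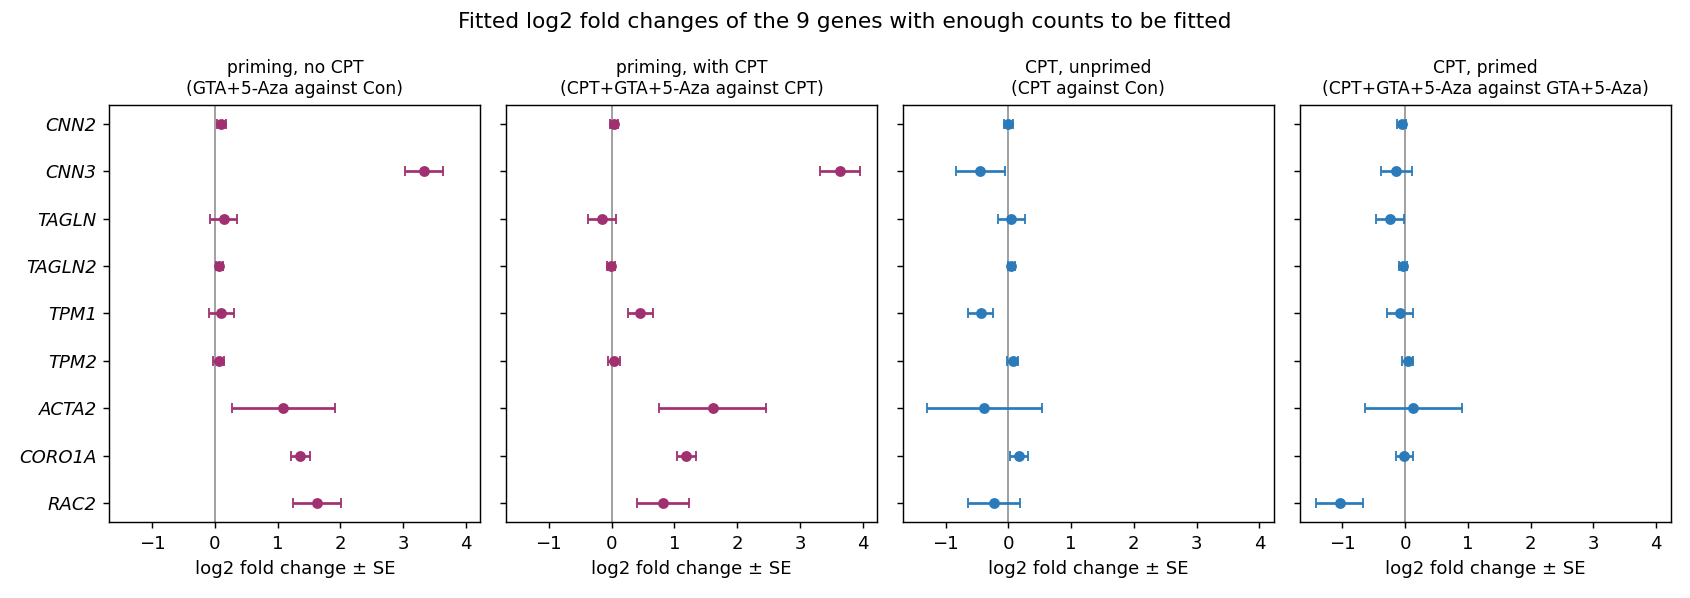
Fitted log2 fold changes ± SE of the 9 genes with enough counts, with one panel for each comparison and the same axis throughout. Priming values of CNN3 (3.33 and 3.64), CORO1A (1.36 and 1.19) and RAC2 (1.63 and 0.82) lie to the right of 0, and in the CPT panels RAC2 in primed cells (-1.04) and TPM1 in unprimed cells (-0.44) lie farthest from 0 in units of their error.

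Searched for 3 short motifs, the windows gave these counts. The 6 letters GGGCGG, the core of the GC box, on either strand, occurred in 10 of 13 windows of the 8 genes with a window and in 45.0% of all windows. It contains CG, so it overlaps the CpG count. The CNN3 window at the outermost start held 5 such matches, the CORO1A window 3, the CNN2 window 2 and the CNN1 window 1. TATAAA on either strand occurred in 0 of the 13 windows and in 11.5% of all windows. The CArG box bound by SRF was searched only in its strict form, CC, then 6 letters that are each A or T, then GG. This form occurred in 1 of the 13, that of CNN2, and in 1.29% of all windows. Forms with a mismatch, such as ccctatatgg in an ACTA2 window, were not counted, and TAGLN and RAC2 had no window. A window without a strict match is therefore not shown to lack a CArG box. These matches describe letters within 300 bases and are not sites shown to be bound.

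Calcipotriol was then compared within unprimed and within primed cells. These are not the contrasts that chose CNN3, CORO1A and RAC2, but they use the same libraries, so a group whose high or low level helped the choice enters here too. RAC2 is further not independent, because the study itself named it for calcipotriol in primed cells. In edgeR's quasi-likelihood fit, with p adjusted by Benjamini-Hochberg over every tested gene, 0 of the 9 genes passed an adjusted p of 0.05 in either state, where the share of all genes was 0.0% in both. At an unadjusted P under 0.05, 1 of 9 passed in unprimed cells (4.28% of all genes) and 1 of 9 in primed cells (2.71% of all genes). DESeq2 gave the same counts, 0 and 1 in each state.

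In unprimed cells the gene past the unadjusted threshold was TPM1. It was lower in all 3 CPT libraries than in all 3 Con libraries, with a log2 fold change of -0.44 ± 0.20 (95% interval -0.86 to -0.02, adjusted p = 1.00 by edgeR's quasi-likelihood test). A two-sided exact permutation test of its log2 CPM gave p = 0.1, the smallest that 3 libraries against 3 allow. The result rested on single libraries, as TPM1 no longer passed the unadjusted threshold without Con replicate 3 (-0.32), without CPT replicate 1 (-0.38) or without CPT replicate 2 (-0.45).

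In primed cells the gene past it was RAC2. All 3 CPT+GTA+5-Aza libraries lay below all 3 GTA+5-Aza libraries, and the fitted level was 2.05-fold lower (log2 -1.04 ± 0.37, 95% interval -1.80 to -0.27, adjusted p = 1.00 by edgeR's quasi-likelihood test). The two-sided exact permutation test again gave p = 0.1, its smallest value. Without GTA+5-Aza replicate 2, the library with the most RAC2, the log2 difference was -0.80 and fell short of the unadjusted threshold. In unprimed cells the RAC2 difference was -0.23 ± 0.41 (interval -1.08 to 0.62, adjusted p = 1.00 by edgeR). The interaction, which tests whether the calcipotriol effect differed between primed and unprimed cells, was -0.81 ± 0.56 on the log2 scale (interval -1.96 to 0.34, adjusted p = 1.00 by edgeR), so a difference between the 2 states was not shown.

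No other gene of the 9 passed in the interaction either, with 0 of 9 at an adjusted p under 0.05 (0.0% of all genes) and 0 of 9 at an unadjusted P under 0.05 (2.63% of all genes) by edgeR and by DESeq2 alike. When the calcipotriol effect was averaged over both states, RAC2 was again the 1 gene of 9 with an unadjusted P under 0.05 (4.51% of all genes), at -0.63 ± 0.28 (interval -1.21 to -0.06), and 0 of 9 passed after adjustment (0.00584% of all genes). That averaged RAC2 value fell short of the unadjusted threshold when Con replicate 2, CPT replicate 1, GTA+5-Aza replicate 2 or CPT+GTA+5-Aza replicate 1 was left out, at -0.50, -0.54, -0.51 and -0.58.

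For the abundant members the intervals were narrow. The 95% interval of the calcipotriol effect in unprimed cells ran from -0.13 to 0.14 on the log2 scale for CNN2, from -0.08 to 0.18 for TAGLN2 and from -0.11 to 0.25 for TPM2. In primed cells it ran from -0.19 to 0.08, from -0.16 to 0.10 and from -0.14 to 0.22 for the same genes. CORO1A had intervals of -0.15 to 0.49 in unprimed and -0.30 to 0.28 in primed cells, and TAGLN had -0.40 to 0.50 and -0.70 to 0.21.

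Scarcer members leave wider limits. For CNN3 the calcipotriol effect was -0.45 ± 0.39 in unprimed cells (interval -1.26 to 0.35) and -0.14 ± 0.25 in primed cells (interval -0.65 to 0.36), and for ACTA2 the intervals were -2.25 to 1.48 and -1.44 to 1.71. Leaving out CPT replicate 3 moved CNN3 past the unadjusted threshold in 3 comparisons: the unprimed difference became -1.23 (adjusted p = 0.521 by edgeR), the averaged one -0.68 (adjusted p = 0.590) and the interaction 1.08 (adjusted p = 1.00). In the same edgeR fit TPM2 passed it at 0.19 in unprimed cells (adjusted p = 0.624) and 0.11 averaged (adjusted p = 0.739).

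The members' paralogs, 16 genes listed by family and not by their values, show whether other forms moved with them. Of the 11 tested, 4 rose and 2 fell with priming without CPT at an adjusted p under 0.05, and 4 rose and 1 fell with CPT, beside 9.95% higher and 7.53% lower among all tested genes without CPT and 9.57% and 7.39% with CPT. Among coronins, CORO2A, of the type II coronins, stood at 15.9 ± 1.42 CPM in Con and rose to 33.5 ± 4.71 CPM (both SD, n = 3) in GTA+5-Aza (log2 1.07 ± 0.13, adjusted p = 2.31e-06 by edgeR's quasi-likelihood test). CORO6, best known from muscle, rose from 7.72 ± 1.75 to 13.5 ± 0.806 CPM (log2 0.80 ± 0.16, adjusted p = 0.000821 by edgeR). CORO1C, the most abundant coronin per exon length, fell by 0.16 on the log2 scale (adjusted p = 0.0432 by edgeR), a call lost under library size scaling.

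Other paralogs moved little. TPM4, a tropomyosin of nonmuscle cells, rose by 0.14 ± 0.05 without CPT (adjusted p = 0.0478 by edgeR) and 0.16 ± 0.05 with CPT (adjusted p = 0.0244), a call that several alternatives ended, and TPM3 was at -0.11 ± 0.05 in both. ACTB, the main cytoplasmic actin, fell by 0.15 on the log2 scale without CPT (adjusted p = 0.0185 by edgeR) and was at -0.12 ± 0.04 with CPT (adjusted p = 0.0632). ACTG1 was at 0.02 ± 0.04 and 0.03 ± 0.04. RAC3 rose by 0.51 ± 0.16 without CPT (adjusted p = 0.0292 by edgeR) and was at 0.17 ± 0.16 with CPT, and RAC1 was at -0.10 ± 0.05 and -0.08 ± 0.05. CORO1B was at 0.13 ± 0.08 without CPT and rose by 0.29 ± 0.08 with CPT (adjusted p = 0.0103 by edgeR), and CORO7 was at 0.03 ± 0.24 and 0.38 ± 0.24. TAGLN3, ACTA1, ACTC1, ACTG2 and CORO2B had at most 14 counts in any library and were not tested.

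**Figure D3:**
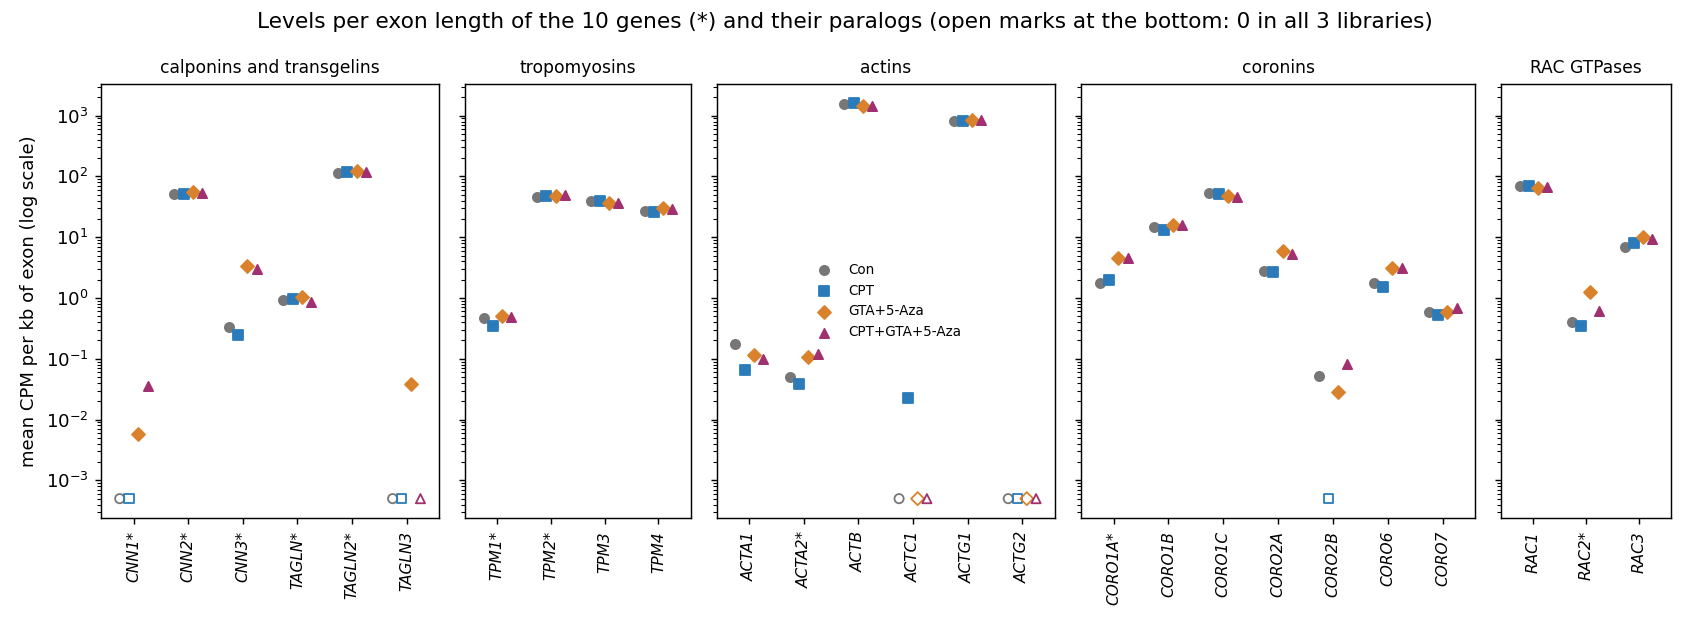
Mean CPM per kilobase of exon (log scale) of the 10 genes, marked with an asterisk, and of their paralogs, with one mark per group of 3 libraries and open marks at the bottom for a level of 0. CNN3 at 0.246 to 3.36 and RAC2 at 0.346 to 1.26 stay below CNN2 at 50.9 to 54.4 and below RAC1 in every group.

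Beyond the paralogs, 8 further lists covered the surrounding machinery, from RAC regulators to myosin. All 9 lists held 206 genes, of which 205 were matched and 160 tested. Without CPT 39 rose (24.4%) and 19 fell (11.9%) with priming, and with CPT 29 rose (18.1%) and 22 fell (13.8%), beside 9.95%, 7.53%, 9.57% and 7.39% of all tested genes. Under library size scaling the last pair was 40 and 12, beside 1986 and 891 of all 17123 tested genes. The list genes had a median log2 change of 0.05 without CPT and 0.06 with CPT, beside 0.01 among all tested genes in both. Their median level was 82.2 CPM, beside 15.9 CPM for all tested genes, and the part of this higher level in the counts was not tested. The 2 priming comparisons share no library, but they come from a single model with shared scaling and dispersion. In both, 26 list genes rose, which is 66.7% of those that rose without CPT and 89.7% of those that rose with CPT. In the same way 16 fell in both, 84.2% and 72.7%. The same overlap over all tested genes was not computed, so nothing about actin genes is read from these shares.

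RAC regulators and effectors, 33 tested, had more calls lower than higher, with 4 that rose and 7 that fell without CPT and 2 and 6 with CPT. PREX1, a guanine nucleotide exchange factor that activates RAC proteins, was at 0.194 ± 0.205 CPM in Con and 1.28 ± 0.275 CPM in GTA+5-Aza (log2 2.66 ± 0.72, adjusted p = 0.0102 by edgeR), and at 0.0838 ± 0.102 and 1.21 ± 0.378 CPM with CPT (log2 3.71 ± 0.82, adjusted p = 0.00206), on 0 to 31 counts per library. Without Con replicate 2 and CPT replicate 2, the unprimed libraries with the most PREX1, these log2 values became 3.96 and 5.16, and the call without CPT was lost when Con replicate 1 or Con replicate 3 was left out (down to 2.21). ARHGDIA, a GDP dissociation inhibitor, rose by 0.22 ± 0.07 and 0.23 ± 0.07. DOCK1, another RAC exchange factor, fell by 0.74 on the log2 scale without CPT and by 0.57 with CPT (adjusted p = 3.19e-07 and 1.19e-05 by edgeR). The study also named DOCK1 from these libraries, so it is not independent evidence. The RAC effector kinase PAK2 fell by 0.34 and 0.42, and the scaffold IQGAP1 fell by 0.25 and 0.24 on the log2 scale.

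Of 9 NADPH oxidase genes that work with RAC proteins, 4 were tested. CYBA, the membrane subunit p22phox, rose by 0.32 ± 0.11 without CPT (adjusted p = 0.0446 by edgeR) and NOXA1, an activator subunit, by 0.73 ± 0.18 (adjusted p = 0.00509), while with CPT they were at 0.27 ± 0.11 and 0.45 ± 0.18 (adjusted p = 0.103 and 0.0911). The other tested genes, NOX1 and NOXO1, passed in neither comparison. NOXO1 was lower, at -0.48 ± 0.22 without CPT and -0.57 ± 0.22 with CPT (adjusted p = 0.152 and 0.0771 by edgeR). NOX1, at 0 to 16 counts per library, was at -1.15 ± 0.87 and 0.17 ± 0.91.

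Filament turnover genes, 45 tested, had 12 that rose and 3 that fell without CPT, and 9 and 8 with CPT. SSH3, a phosphatase of the cofilin pathway, rose by 0.72 ± 0.12 and 0.63 ± 0.12, the formin FMNL3 by 0.68 ± 0.12 and 0.58 ± 0.12, and the monomer-binding profilin PFN2 by 0.32 ± 0.06 and 0.35 ± 0.06. ACTR3, a subunit of the Arp2/3 complex, fell by 0.26 and 0.23 on the log2 scale, and the capping protein CAPZB fell by 0.20 and 0.23.

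Cross-linkers and adhesion links, 25 tested, had 8 that rose and 2 that fell without CPT and 5 and 2 with CPT. FSCN1 (fascin, the bundler of filopodia) rose from 9.45 ± 1.77 CPM in Con to 19.6 ± 2.86 CPM in GTA+5-Aza, by 1.05 ± 0.15 and, with CPT, 1.01 ± 0.15 on the log2 scale. PDLIM4 rose by 0.94 ± 0.13 and 1.02 ± 0.13, and the focal adhesion scaffold PXN by 0.37 ± 0.05 and 0.41 ± 0.05. LIMA1 fell by 0.40 and 0.42 and the spectrin chain SPTAN1 fell by 0.32 and 0.33 on the log2 scale.

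Contraction and SRF genes were mixed. Of 14 actomyosin genes 1 rose and 3 fell in each comparison: the light chain MYL9 rose by 0.55 ± 0.11 in both, the heavy chain MYH9 fell by 0.22 and 0.25, ROCK1 fell by 0.24 and 0.20, and PPP1R12A fell by 0.23 and 0.22 on the log2 scale. Of 16 SRF and smooth muscle genes 9 were tested, and 3 rose and 1 fell in each comparison. CCN1 rose by 0.54 ± 0.08 and 0.53 ± 0.08, CSRP1 by 0.53 ± 0.09 and 0.42 ± 0.09, and CCN2, a matricellular gene at 7 to 74 counts per library, by 1.98 ± 0.41 and 1.29 ± 0.40. Without Con replicate 3 the first CCN2 value became 2.84, and the second lost its call without CPT replicate 1, CPT+GTA+5-Aza replicate 2 or CPT+GTA+5-Aza replicate 3 (down to 1.18). MRTFA, the actin-sensing cofactor of SRF, fell by 0.37 on the log2 scale in both.

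Among 18 actin regulators known mainly from blood cells, the setting in which CORO1A and RAC2 are best known, 5 were tested and 1 rose in each comparison. That gene was the formin FMNL1, at 0.30 ± 0.10 and 0.38 ± 0.10 (adjusted p = 0.0360 and 0.00885 by edgeR's quasi-likelihood test). LCP1, ARHGDIB, DOCK2, NCKAP1L and CYTIP were at 0 in all 12 libraries. EVL and VAV1 were at 0 in all 6 unprimed libraries, reached 16 and 7 counts in primed ones and were not tested. Other untested genes went both ways, all at 12 counts or fewer per library. ARHGAP9, LSP1 and MYO1G had lower means in primed libraries, and AIF1 and RHOH had higher ones. For ARHGAP9 the mean was 0.16 CPM over the unprimed and 0.0204 CPM over the primed libraries. The summed list ran from 34.8 to 47.1 CPM in unprimed and from 46.5 to 53.1 CPM in primed libraries, most of it FMNL1.

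**Figure D4:**
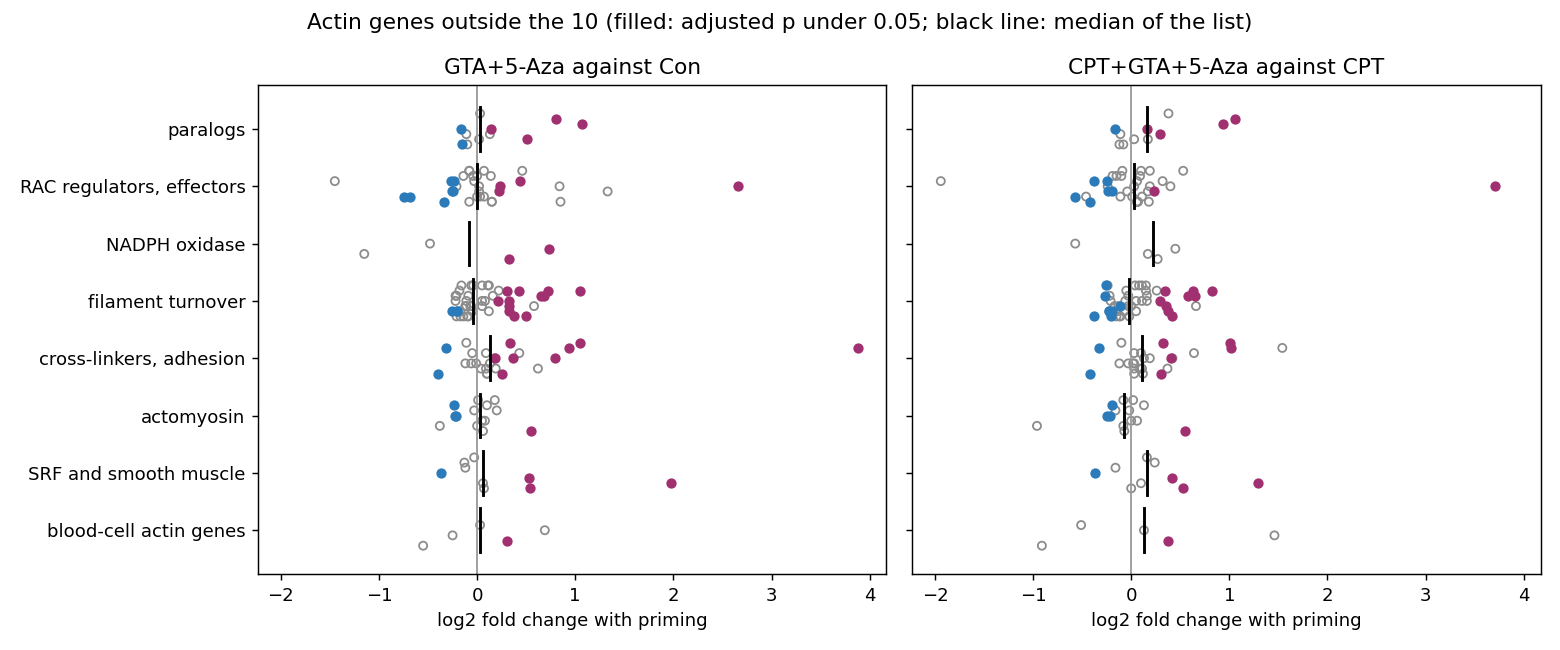
Fitted log2 fold changes with priming of the 146 tested genes in 8 of the 9 actin lists, without CPT at left and with CPT at right, one point per gene, filled where the adjusted p was under 0.05, with a black line at each list's median. Filled points lie on both sides of 0 in most lists, with 35 higher and 18 lower at left and 25 higher and 21 lower at right.

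Calcipotriol called 0 of the 160 list genes at an adjusted p under 0.05 in unprimed cells and 0 in primed cells, by edgeR and by DESeq2. At an unadjusted P under 0.05 the counts were 8 and 4 by edgeR and 9 and 5 by DESeq2, and by edgeR 4.28% and 2.71% of all tested genes passed.

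Genes next to CNN3, CORO1A and RAC2 on the chromosome did not all follow them. Around CNN3, ABCD3, 378 kb away, was at 0.04 ± 0.08 without CPT and 0.03 ± 0.08 with CPT. ALG14, 47.2 kb away, was at -0.24 ± 0.21 and -0.33 ± 0.21, and TLCD4, 190 kb away, at 0.38 ± 0.19 and 0.23 ± 0.20. The noncoding ENSG00000236098, 572 kb away, was at -0.08 ± 0.54 and 1.07 ± 0.55. Next to CORO1A, BOLA2B, 3.86 kb away, was at 0.26 ± 0.25 and -0.32 ± 0.25, while MAPK3, the kinase ERK1, 59.3 kb away on the other side, rose by 0.41 ± 0.09 (adjusted p = 0.00127 by edgeR) and 0.53 ± 0.09. GDPD3, 69.3 kb away, was at 0.76 ± 0.32 and 0.46 ± 0.33. Near RAC2, C1QTNF6, 25.9 kb away, was at -0.05 ± 0.11 and -0.14 ± 0.11, while CARD10, 231 kb away, rose by 0.65 ± 0.14 (adjusted p = 0.00142 by edgeR) and 0.46 ± 0.14. ELFN2, 108 kb away, was at 0.64 ± 0.36 and 0.47 ± 0.36, and ENSG00000235237, 42.4 kb away, at -0.07 ± 0.24 and 0.20 ± 0.24.

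Over the 12 libraries, the genes whose log2 CPM tracked CNN3 most closely were B4GALNT3 (Pearson r = 0.979), PLEKHG2 (0.977) and DIXDC1 (0.976). For CORO1A they were ROBO3 (0.988), ACTR1B (0.983) and PLXNA3 (0.982), and for RAC2 ZNF471 (0.925), DHRS4-AS1 (0.922) and TMEM63B (0.917). All 9 were higher in primed cells, by 0.36 to 1.27 on the log2 scale without CPT. That follows from the choice, since they were matched over the same libraries to genes picked for rising with priming. CNN3 and CORO1A had r = 0.891 with each other over all 12 libraries and -0.428 once group means were removed, and as both were picked for rising with priming the first value follows from the choice. With group means removed, r was 0.779 for TPM1 and CNN2, 0.735 for TPM2 and TAGLN2, -0.716 for CNN3 and TAGLN2 and -0.882 for CNN3 and TPM2. It was -0.746 for ACTA2 and TAGLN2, -0.701 for ACTA2 and TPM2, and 0.725 for TAGLN2 and CORO1A. These are among the largest values of all pairs of members. CPT replicate 2 had 4 CNN3 counts and the highest TPM2 and TAGLN2 (179 and 296 CPM). CPT replicate 3 had 23 CNN3 counts and the lowest (125 and 242 CPM). ACTA2 had 0 counts in the former and 10 in the latter. The part of these 2 libraries in the CNN3 and ACTA2 values was not tested. These correlations share the libraries and their scaling and are given as a description.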

How the data were processed

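The libraries were RNA-seq of total RNA from MiaPaca2 cells, 3 in each of 4 groups, taken from the sample labels. Trim Galore was used by the authors on the read pairs, HISAT2 2.2.1 placed them on GRCh38, and HTSeq made the gene counts, which were deposited without normalisation. The annotation release and the strand setting are not given in the sources used here. Ensembl identifiers were matched to GENCODE v44, where 52181 of the 63677 were found, with 99.047% of the counts. Rows that name no gene held 0.0% of the counts, and 1 listed gene, CYFIP1, was not matched. Exon length is the union of all annotated exons, so a level per kilobase is lower for genes with many isoforms.

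The quasi-likelihood test (glmQLFit, glmQLFTest) of edgeR 4.0.16, with limma 3.58.1, was run under R 4.3.3 after TMM scaling. The 12 libraries entered a single model of the 4 groups, on the 17123 genes that filterByExpr kept, with a common dispersion of 0.0101 and p-values adjusted by Benjamini-Hochberg over these genes. CPM values use TMM-scaled library sizes. Fold changes are given as log2 values ± SE, and intervals are 95%. Total counts of 16162490 to 21224665 per library set the precision of scarce genes, and a count of 0 allows up to 3 counts.

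The members, the gene lists and the tests were chosen with earlier results of these data known. The genes named are the 10 members, their tested paralogs, the marker genes, up to 3 genes higher and 3 lower with the smallest p from each list among those past an adjusted p of 0.05 in both priming comparisons in 1 direction, and the 3 genes with the closest pattern to CNN3, CORO1A and RAC2. Neighbouring and overlapping genes, and genes of a list named to account for small counts, were added after their values were seen. The labels do not say whether replicate numbers pair the libraries, and the main model has no pairing. Of 18 correlations between same-numbered libraries over all tested genes, 1 was over 0.1 (-0.0844 to 0.117). Counting error in scarce genes lowers such values, so they cannot exclude pairing. Alternatives were DESeq2 1.42.0, its size factors, library size alone, no filter, a minimum of 1 CPM in 3 libraries, the likelihood ratio test, only the groups compared, a replicate block, each library left out, and a fold above 1.5 with an unadjusted P under 0.05. Promoter windows are RefSeq sequences on GRCh38.p14. No table, sample column or file was left unused. Part of the gene lists is counted in the totals and not reported here gene by gene.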

Additional observations from a re-analysis of the deposited data

How the results depend on the processing

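With the thresholds of a fold above 1.5 and an unadjusted P under 0.05, 17 list genes rose and 2 fell with priming without CPT, and 13 rose and 2 fell with CPT, in place of 39, 19, 29 and 22. Among all 17123 tested genes these thresholds gave 1168 higher and 278 lower without CPT, and 1187 and 298 with CPT. Scaling by library size alone left 12 list genes lower with CPT, beside 891 of all 17123 tested genes in place of 1265. When each library was left out in turn, the members with an unadjusted P under 0.05 for calcipotriol numbered 0 to 3 in unprimed cells, 0 to 1 in primed cells, 0 to 1 in the interaction and 0 to 3 averaged over both. Among list genes the same step gave 26 to 44 higher and 9 to 28 lower without CPT, and 20 to 42 higher and 11 to 32 lower with CPT, with the lowest counts of lower genes without Con replicate 3 and without CPT+GTA+5-Aza replicate 3. The all-gene counts moved too. Without Con replicate 3, 813 of 17704 tested genes were lower without CPT, in place of 1290 of 17123. Without CPT+GTA+5-Aza replicate 3, 805 of 17705 were lower with CPT, in place of 1265. The members whose primed and unprimed libraries separated numbered 2 to 3. After adjustment 0 members passed for calcipotriol in every alternative run. The replicate block gave 1, 1, 0 and 1 members with an unadjusted P under 0.05 in these 4 comparisons, and 36 list genes higher and 19 lower without CPT, 29 higher and 20 lower with CPT. The block gave 1660 higher and 1228 lower without CPT among all tested genes, and 1595 and 1172 with CPT. It ended the calls of TPM4 without CPT and ROCK1 with CPT and made 1 of ACTB with CPT. Whether replicate numbers pair the libraries is not known, so nothing is read from these changes on the size of the effects. The number of separated members was recomputed only under other scalings and left-out libraries, and with only the groups compared there is no interaction or average. No value past its threshold changed sign in the alternatives run, but members' values near 0 did when 1 library was left out, among them the CNN3 interaction (-0.16 to 1.08), TPM1 and TAGLN with priming without CPT (both -0.08 to 0.29) and RAC2 with calcipotriol in unprimed cells (-0.47 to 0.05). Leaving out 1 library also changed at least 1 adjusted call of ACTB, ACTR3, ARHGDIA, CAPZB, CORO1B, CORO1C, FMNL1, MRTFA, PPP1R12A, RAC3, ROCK1 and TPM4, each of the same direction. Depth limits CNN1, ACTA2, RAC2 and unprimed CNN3, at 0 to 86 counts per library.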
